A study of Homo sapiens with 40 samples.

Results

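The comparison described here is between polysome RNA of unstimulated BEAS-2B cells labelled IGF2BP3 knockdown and polysome RNA of unstimulated control cells, with 5 libraries on each side. These 10 libraries were chosen by their labels alone, out of 40 in the series. BEAS-2B is an immortalised human lung epithelial line. The protocol names constitutive shControl and shIGF2BP3 lines, while the library titles read siC and siIGF2BP3, so each side rests on 1 stable line and its 5 numbered libraries. Cells of both lines were grown in RPMI with 10% fetal bovine serum and then kept overnight in 2% medium; the unstimulated libraries received no IL-13, and the IL-13 libraries set beside them were harvested 24 h after 100 ng/ml of the cytokine. Frac-seq sequences total RNA (input) and RNA that sediments with polysomes from the same kind of culture. Nothing in the labels says that the 5 libraries of a group came from separate cultures, so the p-values measure the spread between these libraries, which may in part be technical.

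IGF2BP3 is an RNA-binding protein that recognises N6-methyladenosine-marked and other mRNAs, and is known to stabilise its targets and to promote their translation. Polysomes are mRNAs carrying several ribosomes, and the amount of an mRNA in this fraction reflects both how much of it the cell holds and how much of it is being translated. A value in polysome CPM (counts scaled to a common library total) therefore cannot separate these, and in bulk RNA more expressing cells and more RNA per cell cannot be told apart.

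Total estimated counts ran from 10075876 to 26924954 in the control libraries. In the knockdown-labelled libraries they were 3980588, 18868715, 18232512, 24922300 and 1816848 for replicates 1 to 5. Replicates 1 and 5 were therefore shallow, and between 13459 and 15916 of the 16735 tested genes had at least 1 count in the knockdown-labelled libraries, against 14799 to 15429 in the controls. The first principal component of the 10 libraries held 25.1% of the variance and the second 18.6%, with the shallow replicate 5 at one end of the first and the shallow replicate 1 at one end of the second. Control replicate 1 stood apart in stress and immediate early genes; "without control replicate 1" below means a fit without that library and the input library of the same number. Values without it, or without the shallow libraries, stand beside the results that they moved most. The keratins of simple epithelia were well detected, KRT8 at 419 ± 114 CPM (SD, n = 5) in controls and 376 ± 92.1 CPM (SD, n = 5) in knockdown-labelled libraries, and KRT18 at 769 ± 174 and 620 ± 157 CPM (SD, n = 5 each). EPCAM did not exceed 2.01 CPM, CDH1 1.76 CPM and TP63 0.104 CPM in any of the 10, while the intermediate filament gene VIM stood at 804 ± 171 and 813 ± 125 CPM (SD, n = 5 each), so the label epithelial rested on keratins and not on the adhesion markers.

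The targeted gene itself did not differ between the lines beyond the spread of the libraries in this fraction. IGF2BP3 was at 5.11, 19.5, 17.7, 6.18 and 7.47 CPM in control replicates 1 to 5 and at 6.98, 9.09, 8.28, 5.35 and 26.4 CPM in knockdown-labelled replicates 1 to 5. The 2 sets overlapped almost completely, and the highest knockdown-labelled value came from the shallowest library, where it rested on 54 counts. The means were 11.2 ± 6.84 and 11.2 ± 8.60 CPM (SD, n = 5 each), and a two-sided exact permutation test of log2(CPM + 1) over all arrangements of the 10 libraries gave a difference of -0.03 (p = 0.976, adjusted over the 3 family members 0.976). Over the libraries of at least 5000000 counts the difference was -0.35. The edgeR log2 fold change was -0.10 with all libraries and -0.76 without control replicate 1 and the shallow libraries (adjusted p = 0.679). With limma-voom quality weights it was -0.80 (adjusted p = 0.999). Leaving out 1 shallow library alone, the edgeR value was -0.59 without knockdown-labelled replicate 5 and 0.01 without knockdown-labelled replicate 1. The estimate was thus more negative without replicate 5 and not without replicate 1, and none of these values passed the test. In input RNA, IGF2BP3 was at 35.2 ± 11.3 CPM in controls and 24.9 ± 3.02 CPM in the knockdown-labelled line (SD, n = 5 each), a log2 fold change of -0.50 that did not pass edgeR's quasi-likelihood test (adjusted p = 1.00). The polysome libraries thus do not check the label, and directions below are those of the line labelled knockdown against the control line.

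Neither of its paralogues passed the same test. IGF2BP2 was at 91.1, 62.4, 55.7, 31.5 and 34.0 CPM in controls and at 62.9, 106.7, 60.0, 70.3 and 117 CPM in knockdown-labelled libraries. Its log2(CPM + 1) difference was 0.65 (exact permutation p = 0.0952, adjusted 0.286). IGF2BP1, at 0.98 to 7.23 CPM over the 10 libraries, gave a difference of 0.01 (exact permutation p = 0.944, adjusted 0.976).

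Across all genes, 5 were higher and 0 were lower in the knockdown-labelled line at an adjusted p under 0.05, by edgeR's quasi-likelihood test with Benjamini-Hochberg adjustment over 16735 genes, which is 0.0299% and 0% of those tested. At an unadjusted p under 0.05, 554 genes were higher (3.31%) and 688 lower (4.11%). With the libraries of at least 5000000 counts the balance turned, to 613 higher (3.52%) and 469 lower (2.69%). The median log2 fold change over all genes was -0.03. The count of 5 comes from a fit in which all 40 libraries share 1 estimate of spread; with the 20 polysome libraries alone 1 gene was called, with the 10 compared 0, and DESeq2's Wald test called 90 (60 higher, 30 lower). Of the 5, CLMP was called in each of the 10 fits that left out 1 polysome library alone, and the other 4 were not. CLMP lost its call with the 10 libraries compared (adjusted p = 0.358) and without control replicate 1 and the shallow libraries together (log2 fold change 1.45, adjusted p = 0.0714), a fit in which MATK kept its call (adjusted p = 0.0245). Leaving out 1 polysome library alone, PUDP lost its call without control replicate 4 (adjusted p = 0.1115) or knockdown-labelled replicate 4 or 5 (0.05665 and 0.07589). RGS4 and MATK lost theirs without control replicate 1, 4 or 5 or knockdown-labelled replicate 2, 4 or 5 (adjusted p up to 0.142 for both), and GRIN2A without those or knockdown-labelled replicate 1 (adjusted p up to 0.168). Where the input library numbered 1 was left out together with the polysome library of control replicate 1, MATK and GRIN2A were called (adjusted p = 0.0219 and 0.0258) and RGS4 was not (0.0550).

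CLMP, a junctional adhesion molecule of the immunoglobulin superfamily, showed the smallest p. It was at 5.64, 6.09, 7.34, 5.86 and 5.69 CPM in controls and at 25.9, 14.3, 20.0, 17.2 and 28.3 CPM in knockdown-labelled libraries. The groups did not overlap, and the controls lay within a narrow range. The log2 fold change was 1.77 (SE 0.28, adjusted p = 0.00332). It was also called with the 20 polysome libraries alone (adjusted p = 0.0133).

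PUDP, which encodes a pseudouridine 5′-phosphatase, was at 10.4, 8.64, 12.8, 6.76 and 14.6 CPM in controls. In knockdown-labelled libraries it was at 23.2, 21.1, 23.8, 25.6 and 33.2 CPM. The groups did not overlap, and the log2 fold change was 1.24 (SE 0.22, adjusted p = 0.0176). RGS4, a regulator that shortens signalling through G-protein-coupled receptors, was at 15.7, 27.1, 13.5, 11.1 and 16.7 CPM in controls and at 33.4, 67.4, 34.5, 60.7 and 81.1 CPM in the other line. The knockdown-labelled values were spread widely, yet all lay above the highest control. The log2 fold change was 1.72 (SE 0.32, adjusted p = 0.0230).

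GRIN2A, a subunit of the NMDA glutamate receptor, was at 4.59, 11.1, 6.40, 3.74 and 4.79 CPM in controls and at 19.4, 18.5, 15.5, 22.4 and 21.5 CPM in knockdown-labelled libraries. The log2 fold change was 1.67 (SE 0.33, adjusted p = 0.0367). MATK, an inhibitory tyrosine kinase of the CSK family, had no count in any control library and was at 0.499, 1.18, 1.03, 0.657 and 0.978 CPM in the knockdown-labelled ones, the highest of which held 21 counts. Against a floor of 3 counts per control library, taken as a mean of 0.243 CPM, the knockdown-labelled mean of MATK was 3.58-fold that floor (edgeR adjusted p = 0.0367). The shallow knockdown-labelled replicates 1 and 5 each held fewer than 3 MATK counts, so this fold is not a strict lower bound.

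**Figure D1:**
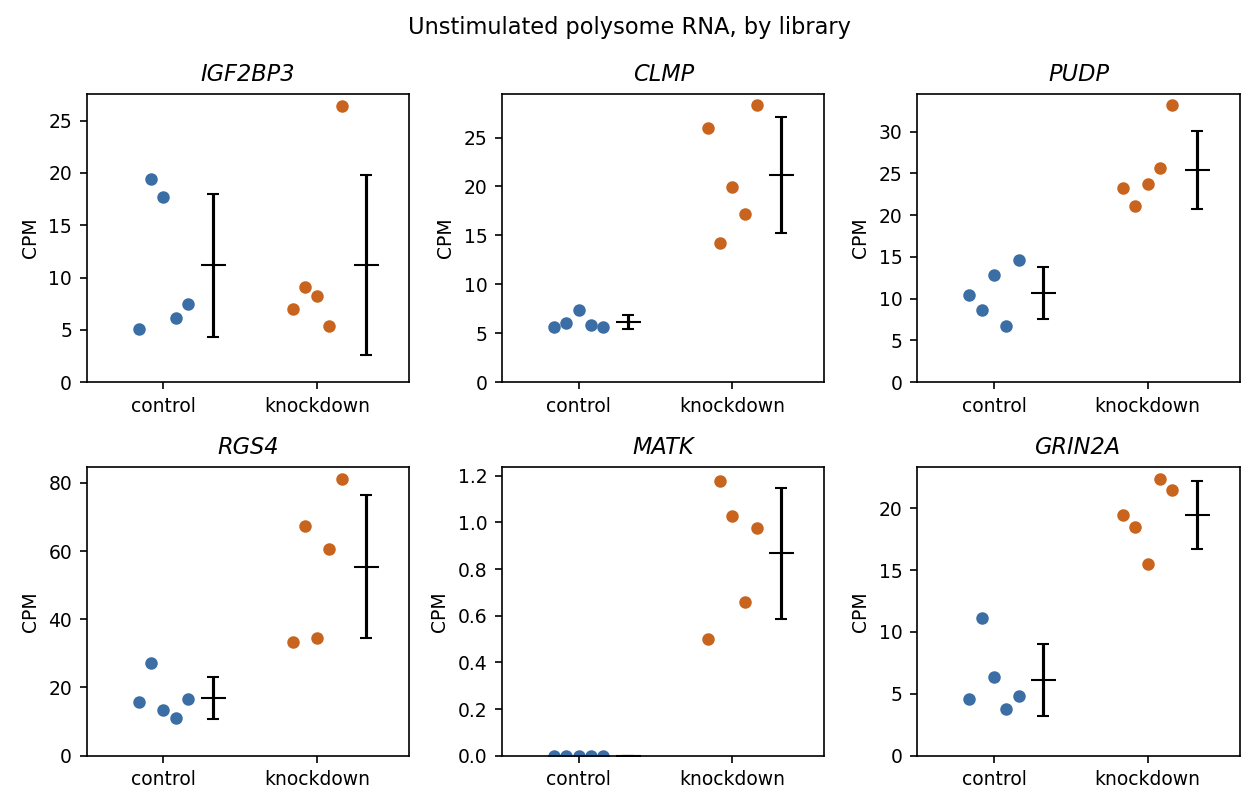
CPM in each unstimulated polysome library (points) for the targeted gene and the 5 called genes, with the mean and SD of each group of 5 beside them. IGF2BP3 overlaps between the lines, while the other 5 genes do not; MATK had 0 counts in all control libraries.

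Among the 13098 genes that averaged 1 CPM or more in either line, 44 had all 5 knockdown-labelled libraries above all 5 controls (0.336%) and 43 had all below (0.328%). The 10 of smallest p in the upward direction included CLMP, PUDP, RGS4 and GRIN2A, and also HIPK2, a stress-responsive nuclear kinase, the receptor for lysophosphatidic acid LPAR1, the Wnt ligand WNT7B, the metalloprotease ADAM12, the secreted C1q-domain protein C1QL2 and CDH5, the cadherin of endothelial junctions. None of these last 6 passed the adjusted threshold. ADAM12 was at 28.2, 17.6, 20.5, 14.5 and 30.1 CPM in controls and at 58.1, 63.3, 46.1, 102.6 and 60.1 CPM in the other line, a log2 fold change of 1.58 (SE 0.35, adjusted p = 0.0651). WNT7B rested between 3.27 and 7.30 CPM in controls and between 9.04 and 15.2 CPM in the other line, with a log2 fold change of 1.20. HIPK2 lay at 9.38 to 16.5 CPM against 23.7 to 34.7 CPM (1.06, adjusted p = 0.0544), LPAR1 at 8.25 to 19.3 against 25.4 to 49.4 CPM (1.09, adjusted p = 0.0638).

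C1QL2 and CDH5 had the largest fold changes of these 10. C1QL2 was at most 1.10 CPM in controls and between 3.42 and 15.7 CPM in the other line, a log2 fold change of 3.50 (SE 0.75, adjusted p = 0.0638). CDH5 was between 0 and 1.67 CPM in controls and between 2.74 and 7.74 CPM in the other line (2.92, SE 0.70, adjusted p = 0.110). In the 8 endothelial markers, 3 were tested and CDH5 alone did not overlap between the lines; KDR and ERG had 0 counts in all 10 libraries, PECAM1 at most 2 counts and VWF at most 9. Leukocyte markers were at 0 counts for PTPRC, CD3E, MS4A1, CSF1R, ITGAM and NKG7, and CD14 and CD68 were detected in both lines.

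In the downward direction none of the genes reached the adjusted threshold. CHAC1, which degrades glutathione and is an ATF4 target, was at 35.5, 3.09, 2.73, 27.2 and 13.4 CPM in controls and at 1.50, 1.07, 1.77, 2.30 and 0.489 CPM in the other line, with a log2 fold change of -3.41 (SE 0.76, adjusted p = 0.0682). All 5 controls were above all 5 knockdown-labelled libraries, by a small margin for replicates 2 and 3. USP18, which removes the ubiquitin-like modifier ISG15, had narrow groups, at 21.8, 18.6, 19.6, 21.8 and 17.9 CPM against 10.7, 13.5, 7.65, 13.4 and 9.29 CPM, with a log2 fold change of -0.86 (SE 0.20, adjusted p = 0.101).

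TRIM8, an E3 ubiquitin ligase, was at 117 to 156 CPM against 78.7 to 107 CPM (-0.60, adjusted p = 0.193). The serine synthesis enzyme PSPH was at 149 CPM in control replicate 1 and 28.2 to 52.5 CPM in the other controls, against 18.6 to 27.9 CPM (-1.29, adjusted p = 0.134; -0.62 without control replicate 1). ZNF385A, a zinc finger RNA-binding protein, was at 18.9 to 36.6 CPM against 3.91 to 15.6 CPM (-1.32, adjusted p = 0.236). The remaining downward genes were RILPL2 (-0.70), the adaptor SHF (-0.67), ENSG00000279088 (-1.22), the homeobox gene PRRX2 (-1.76) and the acyl-CoA thioesterase ACOT4 (-0.91), with adjusted p between 0.236 and 0.262.

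**Figure D2:**
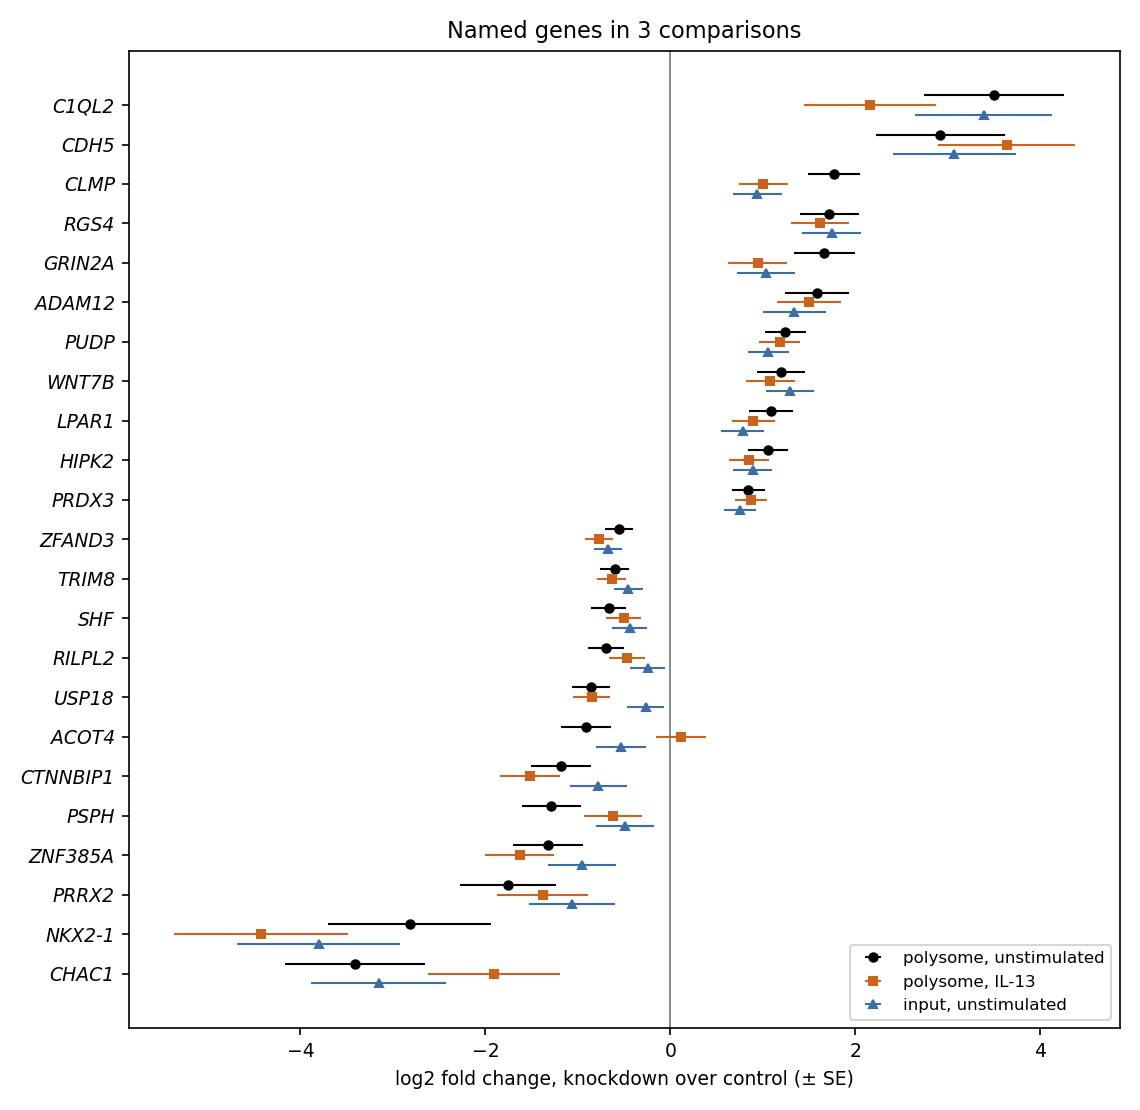
Log2 fold change, knockdown over control, with SE, of the named genes in unstimulated polysome RNA (circles), polysome RNA with IL-13 (squares) and unstimulated input RNA (triangles). Of the genes shown, ACOT4 alone has an unstimulated and an IL-13 polysome value on opposite sides of 0.

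The unstimulated and IL-13 polysome comparisons share no library, so the second gives fold changes of the same line difference from other libraries. Their p-values are not separate in the same way, because each gene's estimate of spread comes from the fit of all libraries and enters both. A gene with a low estimate is favoured in both comparisons. How far this raises the shares below that pass both thresholds, against those of all genes, was not tested. The polysome comparison with IL-13 called 15 genes (0.0896%), and the unstimulated input comparison 2 (0.012%). Of the 554 genes higher at an unadjusted p under 0.05, 428 (77.3%) were also higher with IL-13, against 62.5% of all genes with a positive value, and 152 (27.4%) also passed that unadjusted threshold there, against 6.34% of all genes with a positive value; these 152 are 24.6% of the genes higher at that threshold with IL-13. Of the 688 lower genes, 550 (79.9%) were lower with IL-13 and 185 (26.9%) also passed, against 67.5% and 9.86%, and the 185 are 17.7% of those lower with IL-13. The background shares with IL-13 were 3.69% higher and 6.23% lower. With input, 435 of the 554 and 576 of the 688 had the same sign (78.5% and 83.7%). That compares with 62.3% and 64.8% of all genes with a positive and a negative value. Control libraries numbered 1 are in both comparisons, and these shares are not given without them. At an unadjusted p under 0.05 by edgeR, input held 226 higher and 271 lower genes. Without the control input library numbered 1 it held 208 and 141.

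PUDP had a log2 fold change of 1.18 with IL-13 (adjusted p = 0.0225), RGS4 1.62 (adjusted p = 0.0274) and MATK was called there too (adjusted p = 0.0120). CLMP had 1.01 (adjusted p = 0.123), GRIN2A 0.94 (adjusted p = 0.269) and ADAM12 1.50 (adjusted p = 0.0750). No gene's line difference changed between IL-13 and unstimulated polysome RNA at the adjusted threshold by edgeR; 563 (3.36%) had an unadjusted p under 0.05, fewer than the 837 that this threshold passes by chance over 16735 genes. In input RNA, RGS4 differed by 1.74 (adjusted p = 0.0262), PUDP by 1.06 (adjusted p = 0.0528) and CLMP by 0.94 (adjusted p = 0.369).

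No gene's line difference was larger or smaller in polysome than in input RNA at the adjusted threshold by edgeR. An unadjusted p under 0.05 was found for 283 (1.69%), again fewer than 837. Libraries of the same number were not paired in this fit, so any variation they share was counted as spread. Counts under 837 therefore do not show that the line difference was the same in both fractions or treatments. CLMP had the larger polysome value, by 0.83 on the log2 scale (unadjusted p = 0.0356, adjusted p = 1.00), and USP18 the more negative one, by -0.59 (unadjusted p = 0.0441). ADAM9, a metalloprotease chosen after its values were seen, had a polysome log2 fold change of 1.08 and an input value of 0.00, with 29.3 ± 9.76 CPM in controls and 61.9 ± 12.1 CPM in the other line (SD, n = 5 each) and an unadjusted p of 0.0101 for the difference between fractions, which did not pass adjustment.

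Averaging the unstimulated and IL-13 polysome differences called 114 genes higher (0.681%) and 117 lower (0.699%). The unstimulated libraries enter this average, so it is not independent of the values above. Of the 114, 104 were higher at an unadjusted p under 0.05 in unstimulated polysomes alone, and of the 117, 101 were lower. The 5 genes of smallest p that rose were PUDP, RGS4, CLMP, MATK and PRDX3. PRDX3, the mitochondrial peroxiredoxin, was at 353, 326, 528, 296 and 419 CPM in unstimulated controls and 484, 833, 610, 822 and 701 CPM in the other line; the groups overlapped through 1 library on each side. Its log2 fold change was 0.84 in unstimulated and 0.87 in IL-13 polysomes, and 0.86 on average (adjusted p = 7.95e-05).

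The 5 that fell were ZFAND3, USP18, CTNNBIP1, NKX2-1 and ZNF385A. ZFAND3, a zinc finger protein, was at 265, 212, 202, 191 and 286 CPM in controls and 170, 132, 192, 140 and 151 CPM in the other line (average -0.67, adjusted p = 0.000521). CTNNBIP1, which blocks β-catenin from binding TCF factors, averaged -1.35 (adjusted p = 0.000830) and USP18 -0.85 (adjusted p = 0.000692). NKX2-1, the lung lineage transcription factor, was at 0.313, 0.359, 1.78, 3.20 and 1.23 CPM in controls and at 0, 0.449, 0, 0.281 and 0 CPM in the other line, at low counts, and averaged -3.62 (adjusted p = 0.00144). With the 20 polysome libraries alone, 29 genes were called higher and 11 lower on average, and all 40 of those were among the 231.

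The IGF2BP target list, mRNAs reported to be bound by this protein family, was chosen with earlier results of these data known. Of its 17 tested members, 4 were higher and 13 lower, with a median of -0.10 against -0.03 over all genes, of which 53.5% were lower. Without control replicate 1 the list was 8 higher and 9 lower with a median of -0.01, and with the libraries of at least 5000000 counts 5 higher and 12 lower (-0.09). None rose and 4 were lower at an unadjusted p under 0.05, against 3.31% and 4.11% of all genes, and none passed adjustment. The 4 were CCND3 (-0.52, 299.8 ± 70.6 against 209 ± 31.6 CPM), MARCKSL1 (-0.50), VEGFA (-1.32) and HMGA1 (-0.59). VEGFA rested on control replicate 1, at 73.3 CPM against at most 8.18 CPM in the other controls, and had a log2 fold change of 0.16 without it. On the average over treatments, CCND3 and MARCKSL1 passed (adjusted p = 0.0267 for both). MYC, a canonical target named after its values were seen, had -0.71 with all libraries and 0.33 without control replicate 1.

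Cytosolic ribosomal protein mRNAs were lower together. Of 79 tested, 77 had a negative log2 fold change, with a median of -0.24, against 53.5% of all genes and a median of -0.03. At an unadjusted p under 0.05, 19 were lower and none was higher, against 4.11% and 3.31% of all genes. Their summed level was 81489, 62505, 58103, 74330 and 66130 CPM in controls and 49901, 53694, 52805, 60083 and 62813 CPM in the other line, so the groups overlapped. RPL10 (-0.57, SE 0.17, adjusted p = 0.262), RPL13A (-0.44, adjusted p = 0.270), RPL3 (-0.52, adjusted p = 0.285) and RPS25 (-0.44, adjusted p = 0.340) had the smallest p, and RPL10, RPL13A and RPS25 fell on the average over treatments (adjusted p = 0.0169, 0.0255 and 0.00966). Without control replicate 1 the median was -0.22, with 75 of 79 lower and 7 lower at the unadjusted threshold (4.04% of all genes), and with the libraries of at least 5000000 counts it was -0.32. With IL-13 the median was -0.33 and 36 were lower at that threshold (6.23% of all genes); in unstimulated input it was -0.04.

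These mRNAs are short, and in the polysome data the line difference followed transcript length and GC content. Genes in the shortest quintile of reference transcripts had a median log2 fold change of -0.14, those in the longest quintile 0.12. The lowest GC quintile had 0.12 and the highest -0.17, which narrowed to 0.07 and -0.05 with the libraries of at least 5000000 counts. The same direction by length was seen with IL-13 in polysomes (-0.28 to 0.14) and in input RNA (-0.13 to 0.11), so it was not confined to polysomes. It was smaller in unstimulated input (-0.04 to 0.02). Comparing genes within each library, the longest minus the shortest quintile was -0.67 ± 0.47 in control and -0.38 ± 0.14 in knockdown-labelled polysome libraries (SD, n = 5 each, relative to the mean of all 40 libraries, with ranges -1.19 to -0.13 and -0.55 to -0.19). The same difference between the highest and lowest GC quintile was 0.25 ± 0.81 in control and -0.08 ± 0.67 in knockdown-labelled libraries (SD, n = 5 each). Control replicates 4 and 5 stood apart, at -1.19 and -1.16 by length and 1.36 and 0.86 by GC. Control replicates 1 to 3 were at -0.13, -0.43 and -0.47 by length and -0.12, -0.40 and -0.44 by GC. Knockdown-labelled replicate 5 was at -1.14 by GC. The groups overlapped on both measures, and whether the length pattern contributes to the ribosomal protein values was not tested.

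**Figure D3:**
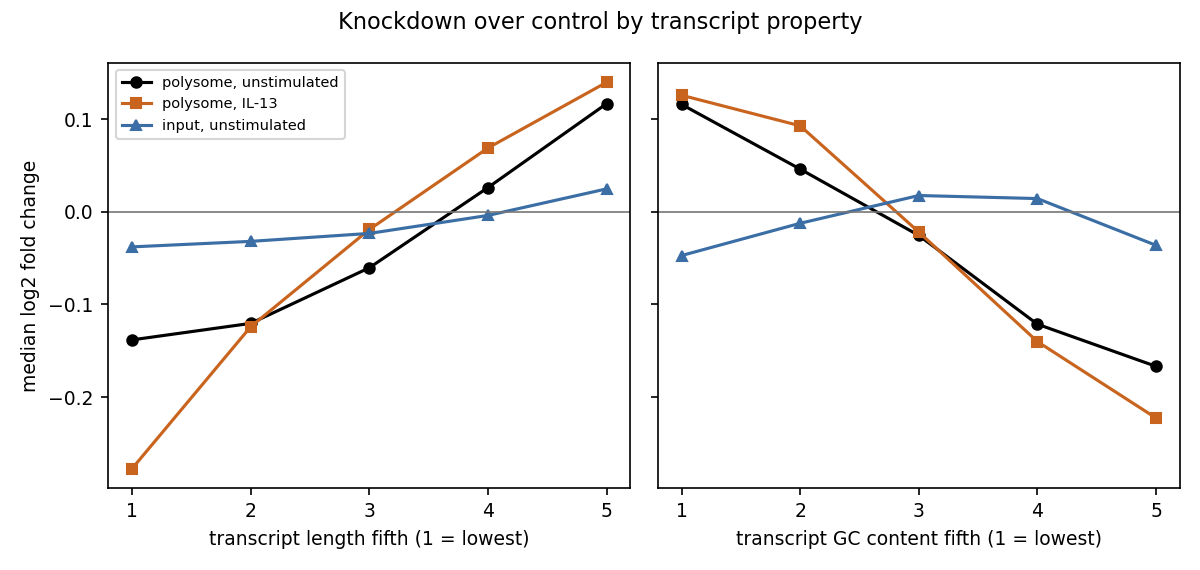
Median log2 fold change, knockdown over control, in each quintile of genes by reference transcript length (left) and GC content (right), for 3 comparisons. Polysome values rise with length and fall with GC in both treatments, and unstimulated input values stay between -0.05 and 0.02. Input with IL-13 is not shown.

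The lists whose medians moved most without control replicate 1 were those of amino acid stress, immediate early and inflammatory genes; lists were not refitted without any other single library. ATF4 is a transcription factor that raises amino acid synthesis and transport genes when amino acids are scarce. Of its 24 listed genes, 22 were lower and 16 were lower at an unadjusted p under 0.05, with 1 higher, SLC7A5, and a median of -1.05. Over all genes tested, 53.5% were lower, with 4.11% lower and 3.31% higher at that threshold. The summed level of the list was 7736 CPM in control replicate 1 and 1825 to 3852 CPM in the other controls. It was 1894 to 4489 CPM in the knockdown-labelled line, so the groups overlapped. The medians of these sums were 3006 CPM in the 5 controls and 4136 CPM in the other line. PSAT1, a serine synthesis enzyme, was at 1400, 116, 84.4, 171 and 136 CPM in controls and at 70.6, 100.7, 62.0, 79.6 and 43.5 CPM in the other line, and ASNS, asparagine synthetase, was at 197, 1.18, 4.98, 13.6 and 5.13 CPM against 5.49, 4.32, 4.17, 2.53 and 3.42 CPM. Control replicate 1 was thus many times the others for both. Without it the list median was -0.44, with 18 of 24 lower and 10 lower at the unadjusted threshold (4.04% of all genes), PSAT1 at -0.82 and CHAC1 at -2.92. SLC7A5, a leucine transporter whose direction differed from the others and which was named after its values were seen, had 1.06 on the log2 scale and was called on the average (adjusted p = 0.0125). The other 4 called there were CHAC1, PSAT1, PSPH and PHGDH, all lower.

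Promoters of 2 listed genes are shown because CHAC1 did not overlap between the lines and ASNS stood out in control replicate 1, and both hold a match to the C/EBP-ATF element that ATF4 is known to bind. The motif TGATGNAA, searched on both strands, was in a window for 7 of the 20 listed genes that had one in the RefSeq table (35.0%), against 2.64% of the tested genes with a window. The windows run from 250 bases before to 50 bases after the start in GRCh38.p14, with the match in capitals. CHAC1 is on the plus strand at chr15:40953221-40953520 and ASNS on the minus strand at chr7:97872359-97872658.
CHAC1: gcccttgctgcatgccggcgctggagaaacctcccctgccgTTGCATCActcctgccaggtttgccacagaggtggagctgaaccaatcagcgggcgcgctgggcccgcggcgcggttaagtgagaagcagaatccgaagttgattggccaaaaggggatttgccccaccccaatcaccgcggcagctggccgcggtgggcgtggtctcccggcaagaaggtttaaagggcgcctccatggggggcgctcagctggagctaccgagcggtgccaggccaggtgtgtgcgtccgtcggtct
ASNS: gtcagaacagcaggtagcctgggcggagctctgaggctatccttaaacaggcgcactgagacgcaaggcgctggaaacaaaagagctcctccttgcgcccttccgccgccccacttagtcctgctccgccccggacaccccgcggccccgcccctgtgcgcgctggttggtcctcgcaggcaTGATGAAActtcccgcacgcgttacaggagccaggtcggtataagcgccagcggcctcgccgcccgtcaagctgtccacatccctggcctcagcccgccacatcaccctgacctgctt
The match is a description of the letters in the window and not of binding in these cells. The list was chosen as ATF4 genes, so the share of its genes with the motif describes the list and not the line difference.

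Immediate early genes, which growth factors and serum induce within minutes, were lower in 25 of 27, with a median of -1.05 and 14 lower at an unadjusted p under 0.05. Of all genes, 53.5% were lower, and 4.11% were lower at that threshold. EGR1 was at 649 CPM in control replicate 1 and at 13.6 to 36.2 CPM in the other 4, against 11.7 to 30.2 CPM in the knockdown-labelled line. Without control replicate 1, 14 of 27 were higher and 13 lower, with a median of 0.00. Inflammatory genes showed the same dependence. IL6 was at 75.7 CPM in control replicate 1 and at most 1.67 CPM in the other controls, against 0 to 1.47 CPM, and the list median moved from -1.61 (17 of 20 lower) to 0.13 (12 of 20 higher). The summed level of the inflammatory list was 2270 CPM in control replicate 1, 545.7 to 735.5 CPM in the other controls and 481 to 974 CPM in the knockdown-labelled line. In unstimulated polysomes the medians of both lists were thus negative with control replicate 1 and not without it. With IL-13, where that library does not enter, the immediate early median was -0.29 (17 of 27 lower) and the inflammatory median 0.30 (16 of 20 higher).

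**Figure D4:**
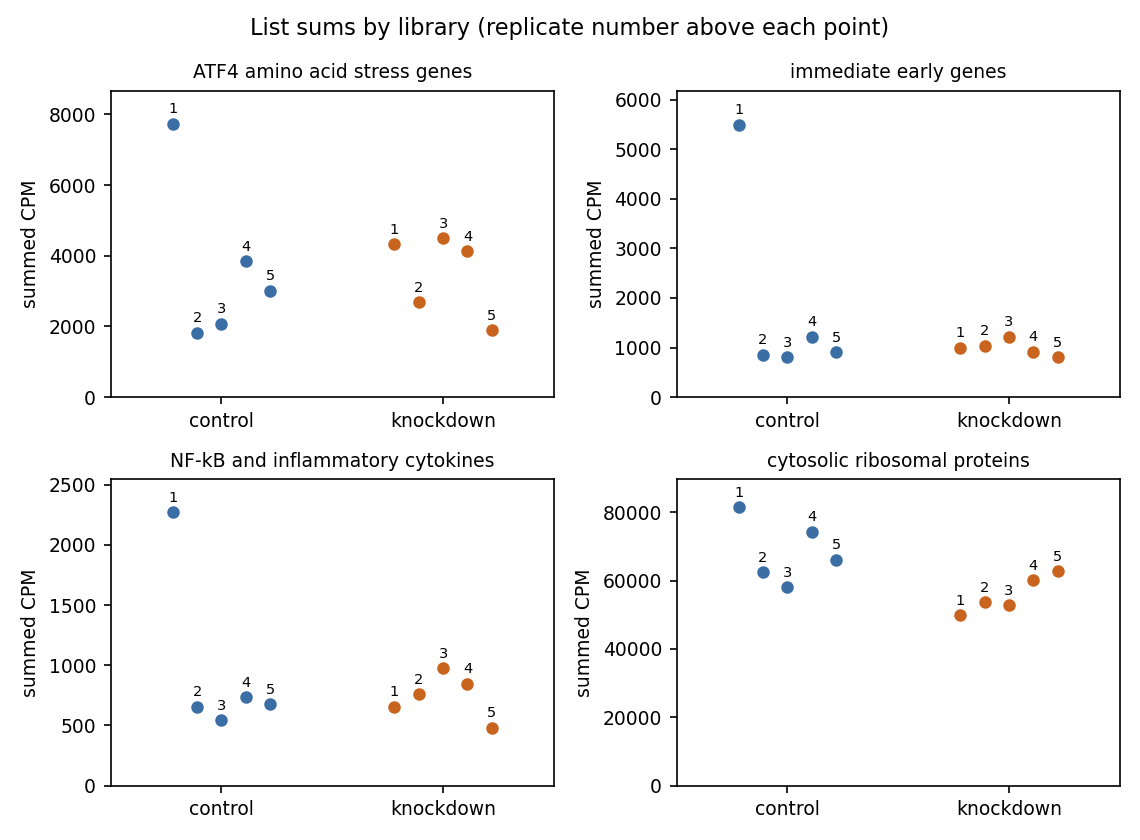
Summed CPM of the tested members of 4 gene lists in each unstimulated polysome library, labelled by replicate number. Control replicate 1 is the highest in each panel, and the sums of the other 9 libraries overlap between the lines in each.

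Other lists are read against 46.3% of all genes higher and 53.5% lower, and 3.31% and 4.11% at an unadjusted p under 0.05. Of 45 tested collagens, laminins, fibronectin and integrins, the matrix proteins and their receptors, 32 were higher and 12 lower, with a median of 0.30 (0.23 without control replicate 1); 4 were higher and 2 lower at an unadjusted p under 0.05. ITGA4, an integrin subunit, was at 0.428 ± 0.409 against 2.50 ± 1.35 CPM (SD, n = 5 each; 2.54, adjusted p = 0.236), and it rose on the average over treatments (adjusted p = 0.0367). Mesenchymal genes were higher in 13 of 19 (median 0.21), of which the collagenase gene MMP2 rose on the average (adjusted p = 0.00785). The p53 list was lower in 16 of 20 (median -0.29) with 5 lower at the unadjusted threshold; without control replicate 1 or without the shallow libraries it was lower in 14, 2 of them at that threshold (medians -0.21 and -0.15). The 5 included the cell cycle inhibitor CDKN1A at 684 ± 289.8 against 469 ± 139 CPM (SD, n = 5 each; -0.55, adjusted p = 0.449).

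Glycolysis and hypoxia genes were lower in 24 of 28 (median -0.29) with all libraries and in 18 of 28 (median -0.04) without control replicate 1. Interferon-stimulated genes were lower in 26 of 36 (median -0.24, and -0.11 without control replicate 1), including USP18 and IRF7 (-0.82, adjusted p = 0.367), and OAS3 at -0.68 in unstimulated but 0.93 in IL-13 polysomes. YAP and TGF-beta response genes had a median of 0.01 with all libraries and 0.40 without control replicate 1, where CCN2 reached 1692 CPM against at most 96.7 CPM in the other controls; TGFB2 had 0.97 (adjusted p = 0.324). Cell cycle genes were evenly split, 30 higher and 24 lower (median 0.03), and nuclear respiratory chain genes were lower in 44 of 59 with a median of -0.08 and none at the unadjusted threshold. The respiratory list was lower in 52 of 59 (median -0.17, 5 at that threshold) without control replicate 1, and in 54 of 59 with IL-13 (-0.31, 19 at that threshold). Of the IL-13-induced airway genes, 2 of 9 tested were above 1 CPM in a group, so their median of 1.49 rests on few counts; it was 0.15 with the libraries of at least 5000000 counts. Nuclear-retained long noncoding RNAs (9 tested) likewise went from a median of 0.51 to -0.09. Without control replicate 1, 774 genes (4.55%) were higher and 686 (4.04%) lower at an unadjusted p under 0.05.

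**Figure D5:**
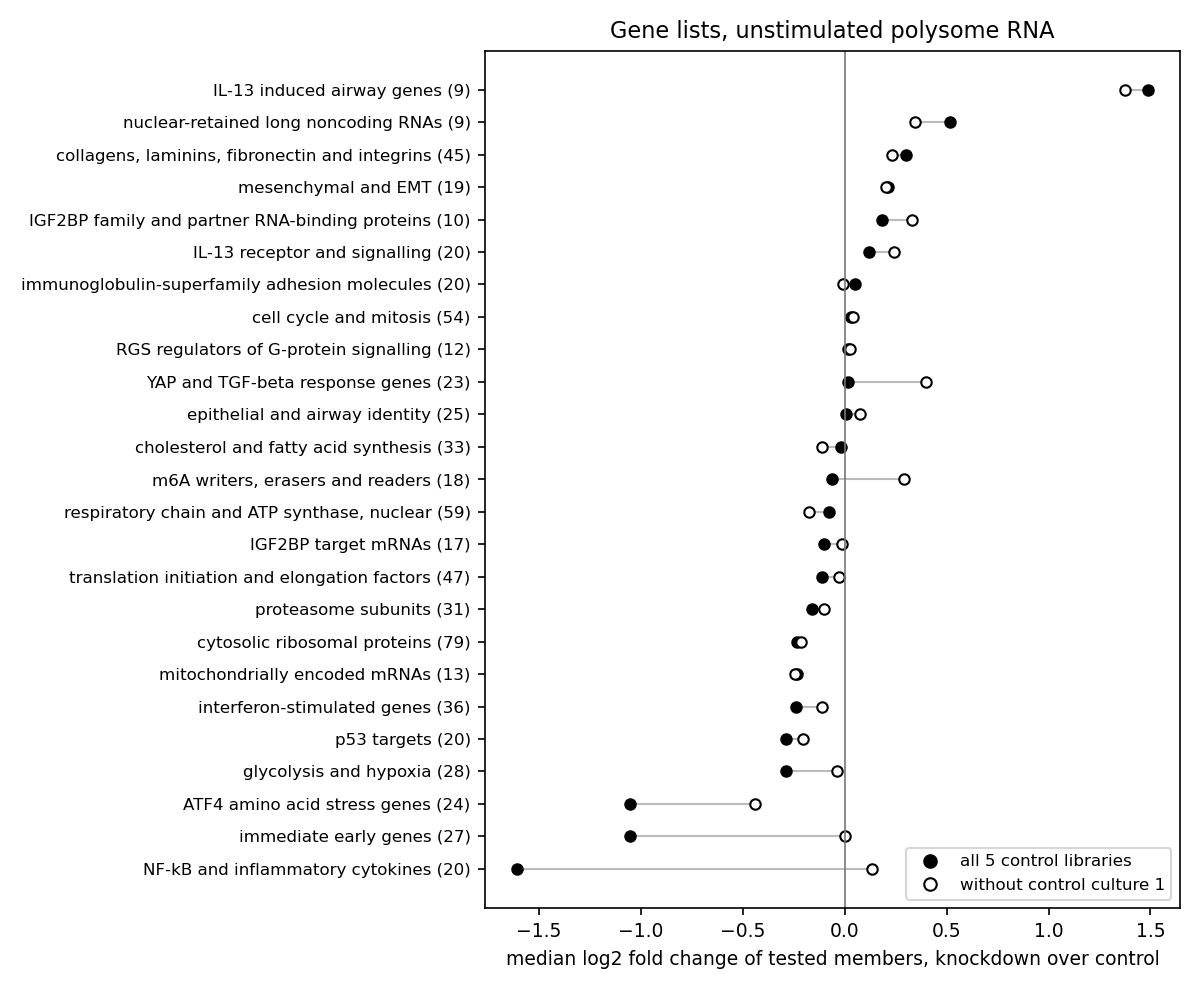
Median log2 fold change of the tested members of each list (number in brackets), with all 5 control libraries (filled) and without control culture 1 (open). The amino acid stress, immediate early and inflammatory lists move most, from -1.05, -1.05 and -1.61 to -0.44, 0.00 and 0.13.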

How the data were processed

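RNA-seq libraries were polyA-selected and stranded, per the labels' protocols. The authors deposited 1 table of estimated counts and TPM per gene for 40 libraries in 8 groups of 5; the submitters' processing notes name Trimmomatic, Salmon, MultiQC and DESeq2. The genome build and annotation are not given in the sources used here. The deposited expected counts were rounded to whole numbers, although the design had foreseen whole counts. Deposited TPM values served only as a description. The 62263 rows were paired with symbols for 62246 through the reference's gene names. Genes passing edgeR's expression filter (16735) were fitted with TMM scaling and the quasi-likelihood test over all 40 libraries (edgeR 4.0.16, limma 3.58.1, R 4.3.3), with Benjamini-Hochberg adjustment over all genes and a call at an adjusted p under 0.05. DESeq2 1.42.0 was an alternative. CPM used TMM-scaled totals, and totals per library are in the report; counting error is larger in the 2 shallow libraries. The 20 replicate pairs of the 2 groups differed beyond sampling noise (lowest chi-square per degree of freedom 28.8), so none was a repeated library. Code was tested on simulated data.

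Named genes were the IGF2BP family, the called genes, the 10 of smallest p in each direction among non-overlapping genes with at least 1 CPM in a group, up to 4 members of each list by p, and the 5 of smallest p in each direction on the average of the polysome comparisons. A Y-linked gene was left out, and some items are not reported here. Members and lists were chosen with earlier results of these data known, and it was known then that polysome libraries vary more than input libraries, which share 1 spread in the 40-library fit. Transcript length and GC came from GENCODE v29 transcripts, promoters from RefSeq. Alternatives were other scaling, filters, tools, subsets of libraries and each library left out.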

Additional observations from a re-analysis of the deposited data

Results flagged for a closer look

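In groups of 5, a library was looked at again when it lay far from the others for a group of this size (Dixon's test). That held for 7 of 61 group values, where chance gives about 3. IGF2BP3 was at 26.4 CPM in knockdown-labelled replicate 5 (54 counts), against 5.35 to 9.09 CPM in the other 4. HIPK2 was at 34.7 CPM in the same shallow library, on 71 counts, against 23.7 to 25.6 CPM. PSPH was at 149 CPM in control replicate 1 against 28.2 to 52.5 CPM. CLMP was at 7.34 CPM in control replicate 3 against 5.64 to 6.09 CPM. SHF was at 41.5 CPM and ENSG00000279088 at 3.52 CPM in control replicate 4, and RILPL2 at 41.0 CPM in control replicate 5. The causes of these values were not tested.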

How the results depend on the processing

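The number of genes called in unstimulated polysomes (5, all higher) depended on the fit. It was 8 with DESeq2 size factors, 13 with no filter beyond 1 count, 90 by DESeq2's Wald test, 1 with the 20 polysome libraries and 0 with the 10 compared. Without control replicate 1 and the shallow libraries together, an alternative chosen after seeing the data, it was 2. It stayed within 1.5 times the main count without either alone and with voom quality weights, but the genes were not all the same. Voom kept 2 of the 5, losing PUDP, RGS4 and GRIN2A, and each removal alone kept 4. Leaving out 1 library gave 1 to 21, the lowest without control or knockdown-labelled replicate 4 and the highest without control replicate 3. The polysome comparison with IL-13 (15) gave 0 with the 20 polysome libraries and with the 10 compared, 30 with the deeper libraries, 28 without control replicate 1, 54 with both removed, 45 with voom, 144 by Wald and 2 to 16 leaving 1 out. Unstimulated input (2) gave 5 with DESeq2 size factors, 11 with no filter and with the 10 compared, 7 with the deeper libraries and without control replicate 1, 9 with both removed, 18 with the 20 input libraries, 51 with voom, 28 by Wald and 0 to 5 leaving 1 out. The average over treatments (231) gave 140 with no filter, 465 without control replicate 1, 40 with the 20 polysome libraries, 152 with voom, 532 by Wald and 134 to 382 leaving 1 out. The line difference changed between fractions for 1 gene without control replicate 1 and the shallow libraries, and between treatments for 1 gene with no filter and for 1 without control replicate 1. For IGF2BP3 the log2(CPM + 1) difference ran from -0.37 to 0.21 leaving 1 library out, and its edgeR log2 fold change from -0.59 to 0.19; IGF2BP1 was -0.13 with the deeper libraries and -0.35 to 0.51 leaving 1 out. The causes were not tested. With the 20 libraries of 1 fraction alone the counts fell in polysomes and rose in input. Counting error limits the shallow libraries most.

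Control and knockdown-labelled libraries of the same number did not all deviate together. Their r ran from -0.26 to 0.35 in unstimulated polysomes, -0.40 to 0.46 with IL-13 and -0.16 to 0.10 in unstimulated input. In these, 0, 2 and 0 of 5 correlated best with their own number. Polysome and input libraries of the same number were not compared in this way. With the replicate number as a block, 3 genes were called in unstimulated polysomes, 10 with IL-13, 0 in unstimulated input and 207 on average, and the IGF2BP3 difference was -0.03 (exact sign-flip p = 1.00).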

Other observations

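Genes outside the naming rule, chosen after their values were seen, included Notch pathway targets and cell surface receptors. HES1 and HEYL, transcriptional repressors that Notch induces, stood at 29.7 ± 25.2 and 4.64 ± 3.78 CPM in unstimulated control polysomes and at 9.92 ± 2.61 and 1.14 ± 0.92 CPM in the knockdown-labelled line (SD, n = 5 each), and both fell on the average over treatments by edgeR's quasi-likelihood test (log2 fold changes -1.43 and -2.22, adjusted p = 0.00329 and 0.00269). HES1 had -1.56 in unstimulated polysomes and -0.91 without control replicate 1. S1PR1, a receptor for sphingosine-1-phosphate, the zinc-sensing receptor GPR39 and the prolactin receptor PRLR rose on that average (1.21, 1.66 and 1.44, adjusted p = 0.00403, 0.00329 and 0.00613). In unstimulated polysomes alone PRLR was at 2.12 ± 1.47 against 6.68 ± 0.63 CPM (SD, n = 5 each; adjusted p = 0.151).

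DHX29 and FGD5-AS1 were listed at 0 in all 5 unstimulated control polysome libraries, against 3.51 ± 5.06 and 7.37 ± 15.0 CPM in the knockdown-labelled line (SD, n = 5 each), while their log2 fold changes with IL-13 were 0.19 and 0.00. Both SDs exceeded the means, so the values were uneven between the knockdown-labelled libraries, and no line difference is read from them.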
